A study of Mus musculus with 18 samples.

Results

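Cultures differentiated from mouse embryonic stem (ES) cells toward neurons and given the liver X receptor ligand GW3965 were compared at day 17 with cultures of the same day without it. The comparison rests on 4 of the 18 RNA-seq libraries in the series, 2 labelled day 17 and 2 labelled day 17 GW3965, chosen by their labels alone. All libraries came from wild type E14 cells, a feeder-free mouse ES cell line. Aggregation without leukemia inhibitory factor was followed by neural induction with 5 µM retinoic acid over 4 days, and dissociated embryoid bodies were plated on laminin and polyornithine in N2 medium. GW3965 was used at 1 µM and dimethylsulfoxide was the vehicle. The sample labels gave no exposure time for the day 17 group, and the names of the deposited data read as 24 h. The other groups described below were undifferentiated ES cells without ligand (ES control) and with GW3965 for 24 h (ES GW3965). Cultures at day 8, at day 16 and at day 16 with GW3965 were also used. The last of these (day 16 GW3965) was read from the deposited names as treated from day 8. The series also held ES cells given another ligand, LG268, at 1 µM (ES LG268), or LG268 and GW3965 at 1 µM each. Their labels read 24 h. These LG268 groups entered the fit of all 18 libraries and statements about all groups or all other libraries. Their responses are not reported here. Each group had 2 libraries. No label said whether replicate libraries came from separate cultures, so p-values measure the spread between these libraries, which may be technical.

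Liver X receptors alpha and beta, encoded by Nr1h3 and Nr1h2, are nuclear receptors that bind oxidised cholesterol derivatives and act on DNA as partners of retinoid X receptors. Their best known targets export cholesterol (Abca1, Abcg1), limit its uptake (Mylip) and raise fatty acid synthesis through the transcription factor SREBP-1c, a product of Srebf1. A sister factor, SREBP-2, switches on cholesterol synthesis and uptake when sterols in the endoplasmic reticulum run low, and INSIG proteins hold both factors back when sterols are plentiful. In the brain, where cholesterol is made locally and glia supply much of it to neurons, these receptors are known for lipid supply and for effects on neurogenesis.

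The 4 day 17 libraries held 16.75 to 22.53 M gene counts and 18053 to 18398 genes with a count. The other 14 libraries held 19.48 to 44.79 M, so that day 17 replicate 2, at 16.75 M, was the shallowest of all 18. Levels are given as counts-per-million values (CPM) after scaling, differences as log2 fold changes of day 17 GW3965 over day 17 with their standard error (SE), and a gene is said to rise or fall at a Benjamini-Hochberg adjusted p below 0.05 in edgeR's quasi-likelihood test, with no minimum fold. The day 17 files differ from the other 14 in how reads aligned more than once were treated: 31.84 to 33.53% of their reads stood apart as not unique, and that number was 0 in the others. How the other files handled such reads is not given in the sources used here. Gapdh, which has many near copies in the genome, was at 6.87 and 4.55 CPM in the day 17 libraries and 9.51 and 11.4 CPM in the day 17 GW3965 libraries, against 142 and 139.9 CPM at day 16. Within day 17 all 4 libraries share this treatment, so comparisons between the 2 groups are not split by it, but levels set against other days may be touched by it, which was not tested, and list counts across days are given below for genes with under 1% of their 50-base words in another gene. This limit was chosen after the data were seen.

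The source label of every library reads embryonic stem cells, and marker genes show what the day 17 cultures held. The neuronal cytoskeleton genes Tubb3 and Map2 lay at 151 to 339 CPM and 384 to 442 CPM over the 4 libraries, against 22.7 and 23.4 CPM and 32.7 and 31.8 CPM in ES control. Dcx, a marker of young neurons, was at 298 to 394 CPM against 0.132 and 0.158 CPM. The cultures were mixed. Gfap, the astrocyte filament gene, reached 1275 to 2529 CPM, and the fibrillar collagen gene Col3a1 of mesenchymal cells 2619.9 to 4032 CPM. Afp, an endoderm gene, was at 72.2 to 117 CPM. Pou5f1, the stem cell factor, had dropped to 5.95 to 13.1 CPM from 688 and 708 CPM. The leukocyte gene Ptprc, the microglial gene Aif1 and the muscle factor gene Myod1 were at or near 0 (at most 0.171, 0.117 and 0.378 CPM). In such bulk cultures fewer cells of a type and less RNA per cell cannot be told apart.

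GW3965 libraries differed from day 17 libraries in 6044 of 17166 tested genes, 35.2% of them, with 2961 higher (17.2%) and 3083 lower (18%). Changes of 2-fold or more were fewer, 5.07% in all, at 581 higher (3.38%) and 289 lower (1.68%). Libraries of both groups did not overlap in 66.1% of all tested genes, and genes that passed the test without overlap made up 35.1%. The median log2 fold change over all tested genes was 0.02. These shares are the background against which each gene group below should be read. The gene lists were chosen with earlier results of these data known, so their counts describe these data and are not an independent test. In the gene groups, sterol and fatty acid genes, glycolysis genes and mitotic genes were mostly higher with GW3965, while immediate early genes and genes of the amino acid and stress response were mostly lower. Where a list below is said to have no member in a direction, DESeq2 and limma-voom also called 0, and at an unadjusted p below 0.05 edgeR gave 0 for immediate early, cell cycle, oligodendrocyte and muscle genes and 1 each for neural progenitor and ribosomal protein genes.

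The LXR target list was led by lipid genes. Of 24 tested members 11 rose, 4 fell and 9 did not pass, with a median log2 fold change of 0.68. Scd1 (chr19:44394455-44407879 in GRCm38), which encodes a desaturase that makes monounsaturated fatty acids, was at 48.7 and 46.5 CPM in the day 17 libraries and at 291 and 429 CPM with GW3965. Both treated libraries were far above both controls, with replicate 2 the higher, and the rise was 7.55-fold (log2 2.92, SE 0.12, adjusted p = 9.79e-13). Scd2, its relative in the developing brain, went from 1156 and 1173 CPM to 3967 and 4410.5 CPM. The spread within each group was small beside this 3.596-fold difference (adjusted p = 2.70e-14).

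Among the exporters, Abca1 (chr4:53030787-53159895), which loads cholesterol onto apolipoproteins at the cell surface, was at 155 and 153 CPM in the controls and 365 and 313 CPM with GW3965, a log2 difference of 1.13 (SE 0.08, adjusted p = 1.59e-09). Abcg1 (chr17:31057675-31117988), which hands cholesterol to high density lipoprotein, rose from 4.31 and 5.36 CPM to 24.6 and 23.3 CPM, 5.02-fold (adjusted p = 2.35e-10). Neither exporter showed overlap between the groups. Srebf1 (chr11:60199089-60222581) stood at 88.05 and 79.4 CPM without and 349.8 and 337 CPM with GW3965, a 4.09-fold rise. Mylip, a ubiquitin ligase that limits cholesterol uptake, moved from 16.00 and 14.9 CPM to 41.9 and 44.6 CPM (2.79-fold, adjusted p = 3.40e-09). Apod, which encodes a lipid carrier of glia, was low and rose 2.58-fold, and Lpcat3, which puts polyunsaturated chains into phospholipids, rose 1.41-fold.

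Not all listed targets followed. Apoe, the main apolipoprotein of the brain, was at 170.2 and 140.3 CPM and 195 and 170.5 CPM, with an adjusted p of 0.157. Lpl, a lipase that frees fatty acids from lipoproteins, fell from 125 and 110.3 CPM to 55.9 and 73.4 CPM (log2 -0.87), and Pltp, which moves phospholipids between lipoproteins, from 65.9 and 66.6 CPM to 57.2 and 48.2 CPM. Phlda1 and Arl4c were the other members that fell. The receptors themselves showed no call. Nr1h2 was at 39.8 and 37.96 CPM and 49.6 and 44.02 CPM (adjusted p = 0.171). It passed in edgeR fits of the 4 day 17 libraries alone (adjusted p = 0.0383) and without the expression filter (adjusted p = 0.0173). Nr1h3 stayed near 1 CPM or below in all 4 libraries (adjusted p = 0.0889), and it passed when day 17 replicate 1 was left out (log2 2.07, adjusted p = 0.0174).

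**Figure D1:**
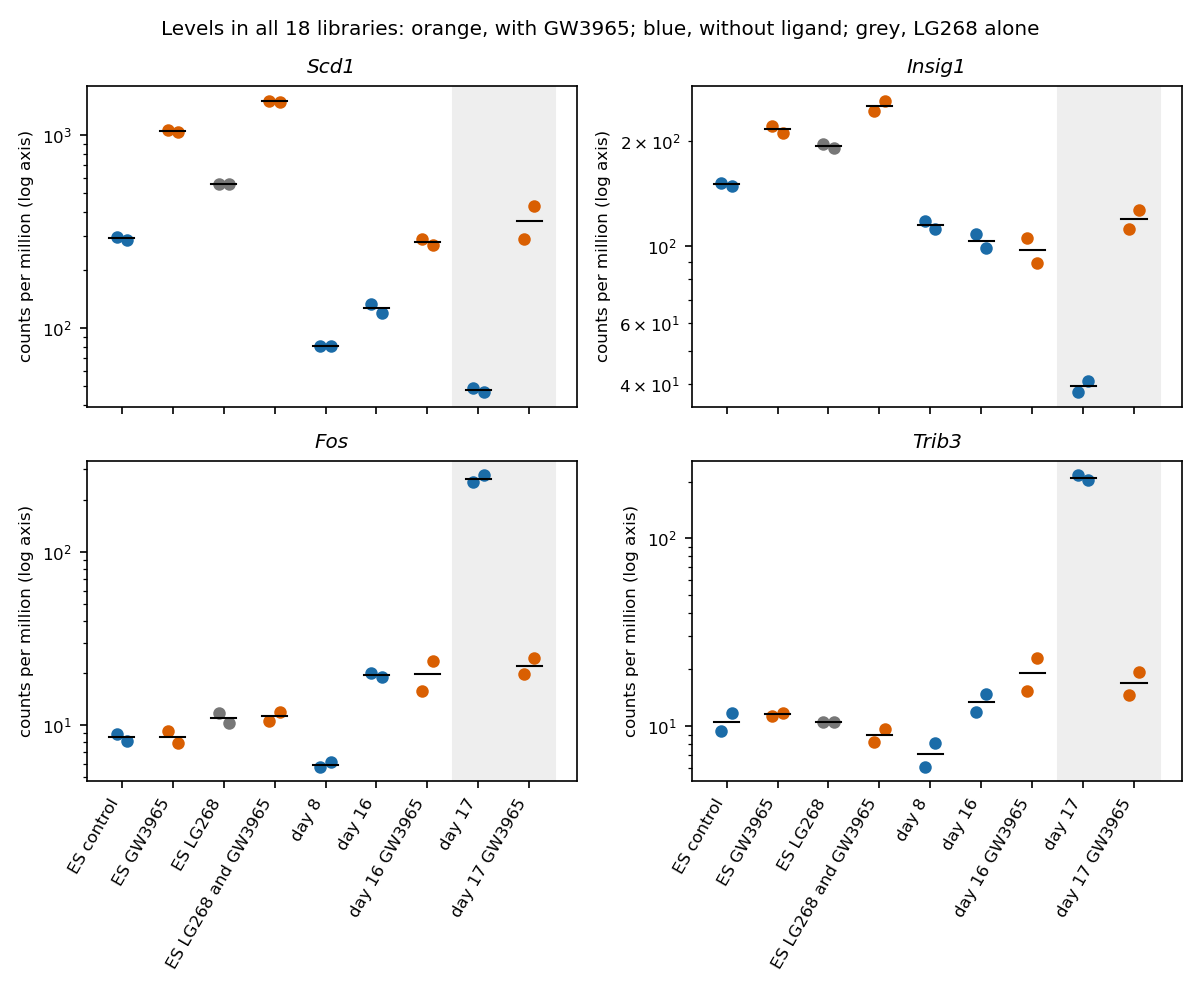
Levels of Scd1, Insig1, Fos and Trib3 in CPM on a log axis, with each of the 18 libraries as a point, the 9 groups along the x axis and a bar at each group's mean. In the shaded day 17 groups Scd1 ran from 48.7 and 46.5 to 291 and 429 and Insig1 from 38.03 and 40.99 to 112 and 126, while Fos and Trib3 were higher in both day 17 libraries than in the other 16.

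Fatty acid synthesis genes rose in 17 of 28 tested members and 1 fell, with a median log2 fold change of 0.35. Fasn (chr11:120805846-120824547), the multifunctional synthase that builds palmitate, was at 261 and 239 CPM in the controls and 620.2 and 638 CPM with GW3965, 2.52-fold higher (adjusted p = 1.32e-10). Acly, which supplies acetyl-CoA in the cytosol, rose 1.36-fold, and Acaca, the carboxylase that commits acetyl-CoA to fatty acids, 1.28-fold. The elongase gene Elovl6 went from 72.9 and 72.3 CPM to 114 and 130.4 CPM. Fads2, which adds double bonds to polyunsaturated chains, went from 35.9 and 31.4 CPM to 82.01 and 84.9 CPM (2.47-fold), and Acsl3, which activates fatty acids on lipid droplets, from 59.7 and 59.01 CPM to 126 and 153 CPM. Neither gene had overlapping groups. The exception was Elovl4, the elongase of very long chains, which fell from 60.4 and 57.8 CPM to 41.5 and 42.9 CPM.

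In cholesterol synthesis, all 20 tested enzymes passed the test, 19 higher and 1 lower, and the groups did not overlap in any of them. The median log2 fold change was 0.82. Hmgcs1 (chr13:119690379-119708260), an early enzyme of the pathway, was at 198 and 212 CPM in the day 17 libraries and 388 and 493 CPM with GW3965 (2.15-fold, adjusted p = 1.89e-08). The last enzyme, Dhcr7, was even between controls at 26.8 and 26.8 CPM and reached 52.99 and 63.2 CPM. Fdps and Nsdhl, at the farnesyl and demethylation steps, rose 2.08-fold and 2.13-fold. Ggps1, which diverts farnesyl units to protein prenylation and away from sterols, was the member that fell, from 54.8 and 58.9 CPM to 46.9 and 49.6 CPM. Of the 15 members with under 1% of shared 50-base words, 15 rose.

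**Figure D2:**
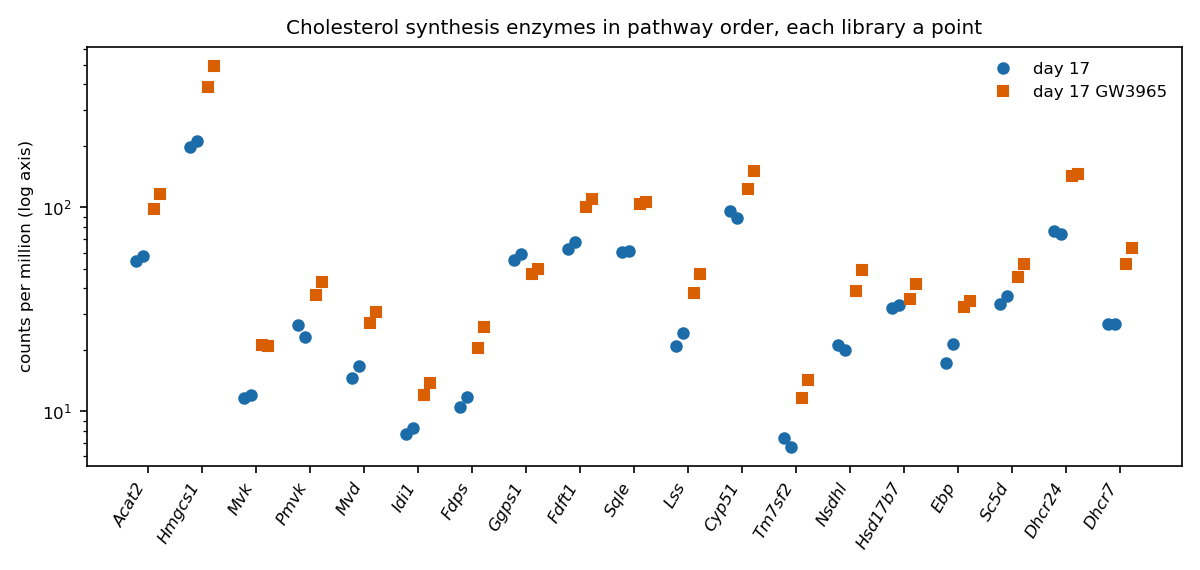
Cholesterol synthesis enzymes named on the axis, from left to right in pathway order, with CPM on a log axis and each day 17 (circles) and day 17 GW3965 (squares) library as a point. The treated libraries lie above both controls for every enzyme drawn except Ggps1, from Hsd17b7 at 1.18-fold to Dhcr7 at 2.17-fold, and below them for Ggps1.

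Genes of sterol uptake and SREBP control rose in 9 and fell in 3 of 25 tested members, with a median of 0.22. Insig1 (chr5:28071363-28078662), the sterol sensor that retains SREBP in the endoplasmic reticulum and is itself an SREBP target, was at 38.03 and 40.99 CPM in the controls and 112 and 126 CPM with GW3965 (log2 1.60, SE 0.08, adjusted p = 3.44e-11). Both treated libraries lay far above both controls. Stard4, a cytosolic cholesterol carrier, rose 2.12-fold. Ch25h, the enzyme that makes 25-hydroxycholesterol, fell from 3.76 and 2.62 CPM to 1.07 and 0.715 CPM.

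Promoter sequences upstream of 2 of these genes are shown because the rise of sterol genes is usually read through sterol regulatory elements and the CCAAT boxes beside them. They are the bases before the RefSeq start (GRCm38.p6, 5′ to 3′ on the gene's strand) that no annotated exon covers, for Insig1 at chr5:28071162-28071362 and Hmgcs1 at chr13:119690101-119690350, both on the plus strand. Capitals mark CCAAT (or ATTGG on the other strand) and, in Hmgcs1, the sterol regulatory element pattern TCACNCCAC.
Insig1: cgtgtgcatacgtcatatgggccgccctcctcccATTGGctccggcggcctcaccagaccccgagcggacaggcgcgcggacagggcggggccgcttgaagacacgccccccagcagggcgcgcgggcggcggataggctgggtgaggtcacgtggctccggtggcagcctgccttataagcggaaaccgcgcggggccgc
Hmgcs1: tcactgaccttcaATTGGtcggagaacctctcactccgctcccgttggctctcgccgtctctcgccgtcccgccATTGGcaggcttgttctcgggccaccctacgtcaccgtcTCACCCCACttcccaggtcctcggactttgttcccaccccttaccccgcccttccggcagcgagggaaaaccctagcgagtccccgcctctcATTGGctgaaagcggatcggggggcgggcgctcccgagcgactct
Over the 250 bases before the start, searched on both strands, CCAAT was found in 76.5% of the promoters of cholesterol synthesis genes that rose (13 of 17 promoters of 14 genes), against 34.8% of the promoters of all tested genes and 33.8% of the 32851 promoters in the table. The element pattern TCACNCCAC was found in 1 of the 17, that of Hmgcs1, against 1.11% of promoters of tested genes. The LXR direct repeat, AGGTCA followed after 4 bases by AGGTCA, was in none of the 14 promoters of the LXR targets that rose. It was also in none of the 15617 promoters of tested genes, and in 0.0152% of all promoters. Its absence is therefore not particular to the LXR targets. Matches describe these letters in this window and do not show binding. Here and below, promoters of members that rose or fell were not compared with those of the other members of their list.

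Immediate early genes, which cells transcribe within minutes of a stimulus without new protein synthesis, were lower with GW3965. Of 33 tested members 28 fell, none rose and 5 did not pass, and the groups did not overlap in 31. The median log2 fold change was -1.36. Fos (chr12:85473890-85477273), which encodes a subunit of the AP-1 transcription factor, was at 252 and 277 CPM in the day 17 libraries and 19.7 and 24.6 CPM in the GW3965 libraries. The controls were 11.9-fold higher (log2 -3.58, SE 0.14, adjusted p = 4.45e-13). Its relative Fosb (chr7:19302696-19310051) went from 67.6 and 69.04 CPM to 1.38 and 1.05 CPM, a log2 difference of -5.81 (SE 0.29, adjusted p = 1.78e-11). Both controls were far above both treated libraries for each of these genes.

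The zinc finger gene Egr1 fell from 486 and 506 CPM to 82.8 and 78.4 CPM, and the nuclear receptor gene Nr4a1 (chr15:101254269-101274795) from 176 and 157 CPM to 18.8 and 20.7 CPM (8.45-fold, adjusted p = 4.45e-13). Egr2 and Egr3, of the same family as Egr1, fell 7.76-fold and 10.2-fold at low levels. Egr4 had 15 and 9 counts in the day 17 libraries and 0 in both GW3965 libraries, which is at least 4.48-fold lower against a floor of 3 counts per library. With Egr4 set to that bound the median of the list stayed -1.36. Jun, the partner of Fos, fell from 213 and 190.0 CPM to 83.4 and 74.2 CPM, and Myc, the growth regulator, from 138 and 110.4 CPM to 42.4 and 43.2 CPM. Dusp1, a phosphatase that switches off MAP kinases, went from 40.8 and 42.4 CPM to 10.98 and 12.9 CPM. Members that missed the threshold included Klf2, at 10.03 and 12.5 CPM and 13.4 and 12.99 CPM, and Zfp36, at 22.2 and 20.8 CPM and 26.8 and 23.9 CPM.

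Genes that neurons switch on with activity fell in 14 of 27 tested members and rose in 2, with a median of -0.37. Npas4 (chr19:4984355-4990316), a transcription factor induced by calcium entry in neurons, was at 24.9 and 29.04 CPM in the controls and 2.46 and 2.35 CPM with GW3965 (log2 -3.48, SE 0.26, adjusted p = 4.31e-09). Arc, which acts at synapses, fell from 14.98 and 11.6 CPM to 3.71 and 2.397 CPM, and Vgf, a secreted neuropeptide precursor, from 12.2 and 13.8 CPM to 3.88 and 4.63 CPM. Plk2, a kinase of synaptic scaling, was more abundant and fell 2.13-fold. Bdnf, the neurotrophin gene, went from 16.8 and 14.4 CPM to 6.92 and 8.91 CPM (adjusted p = 0.00393), a call that was lost without day 17 GW3965 replicate 1 (adjusted p = 0.0507).

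The promoters of Fos (chr12:85473640-85473889, plus strand) and Dusp1 (chr17:26508520-26508722, minus strand) are shown with the core of the cAMP response element, TGACGT, in capitals. CREB bound there is a textbook route from a stimulus to these genes. The full palindrome TGACGTCA contains the core, and where both strands match, all its letters are in capitals.
Fos: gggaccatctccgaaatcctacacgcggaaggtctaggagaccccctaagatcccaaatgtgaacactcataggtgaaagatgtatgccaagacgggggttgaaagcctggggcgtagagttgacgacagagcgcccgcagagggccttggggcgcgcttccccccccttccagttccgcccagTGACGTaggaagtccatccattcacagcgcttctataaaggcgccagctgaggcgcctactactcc
Dusp1: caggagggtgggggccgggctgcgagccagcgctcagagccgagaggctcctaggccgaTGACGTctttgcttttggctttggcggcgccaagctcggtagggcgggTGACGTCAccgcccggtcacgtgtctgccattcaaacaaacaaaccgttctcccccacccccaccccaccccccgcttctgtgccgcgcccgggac
The core was found in 42.3% of the promoters of immediate early genes that fell (11 of 26 promoters of 20 genes), against 8.85% of the promoters of tested genes and 6.47% of all promoters. The palindrome was in 11.5% of them, against 2.36% of promoters of tested genes.

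The integrated stress response list, made of genes that the factors ATF4 and CHOP switch on when amino acids are scarce or proteins misfold, fell in 35 of 40 tested members and rose in 2. The median was -1.20. Trib3 (chr2:152337422-152344032), a pseudokinase gene and classical target of both factors, was at 216 and 203 CPM in the day 17 libraries and 14.6 and 19.3 CPM with GW3965. The controls were 12.3-fold higher and well clear of the treated libraries (log2 -3.62, SE 0.16, adjusted p = 3.88e-12). Atf5, a factor made under the same stress, fell from 476 and 442 CPM to 63.8 and 71.1 CPM, and Fgf21, a stress hormone gene, from 11.2 and 9.85 CPM to 0.804 and 1.64 CPM (log2 -3.09, and -3.71 without day 17 GW3965 replicate 2). Chac1, which degrades glutathione, fell 3.73-fold, and Ppp1r15a, which ends the response by dephosphorylating eIF2 alpha, 4.08-fold.

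Asns, which makes asparagine, fell from 214 and 205 CPM to 59.96 and 65.3 CPM. The amino acid transporter genes Slc7a1 and Slc7a5 went from 369 and 323 CPM to 78.8 and 87.5 CPM and from 484 and 409 CPM to 107 and 119 CPM. The transfer RNA synthetase gene Aars fell from 502 and 477 CPM to 147 and 164 CPM, and the serine synthesis gene Psat1 from 425 and 378 CPM to 175 and 212 CPM. The groups did not overlap in any of these 5 genes. The factors at the top moved less, with Atf4 going from 309 and 294 CPM to 194 and 215 CPM and Ddit3, which encodes CHOP, from 51.9 and 51.3 CPM to 27.1 and 29.1 CPM. Ddit4, an inhibitor of mTOR that hypoxia and steroids also raise, went the other way from 61.2 and 47.6 CPM to 139 and 139 CPM (2.54-fold higher), and Slc38a2, an amino acid transporter gene, rose 1.11-fold.

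The promoters of Fgf21 (chr7:45615491-45615740, minus strand), Chac1 (chr2:119350992-119351228, plus strand) and Atf3 (chr1:191183341-191183583, minus strand), an immediate early and stress gene that fell 6.48-fold, carry the C/EBP-ATF response element TGATGCAA, the composite site to which ATF4 dimers are known to bind. It is read in capitals, in these 3 on the other strand as TTGCATCA.
Fgf21: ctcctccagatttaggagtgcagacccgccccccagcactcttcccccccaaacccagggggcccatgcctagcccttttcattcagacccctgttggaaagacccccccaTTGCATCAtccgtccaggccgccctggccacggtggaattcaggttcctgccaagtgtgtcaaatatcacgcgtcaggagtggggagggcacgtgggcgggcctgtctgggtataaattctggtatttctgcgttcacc
Chac1: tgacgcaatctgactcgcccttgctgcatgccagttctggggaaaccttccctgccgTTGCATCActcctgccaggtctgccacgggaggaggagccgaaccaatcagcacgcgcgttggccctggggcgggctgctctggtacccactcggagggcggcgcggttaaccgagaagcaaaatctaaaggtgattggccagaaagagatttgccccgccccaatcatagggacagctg
Atf3: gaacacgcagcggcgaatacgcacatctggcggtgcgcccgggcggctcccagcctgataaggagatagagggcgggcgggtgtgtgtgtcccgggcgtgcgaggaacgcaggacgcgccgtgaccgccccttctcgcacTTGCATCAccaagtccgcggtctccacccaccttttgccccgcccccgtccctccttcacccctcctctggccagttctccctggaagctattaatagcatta
Among promoters of the integrated stress response genes that fell, 20.0% (7 of 35 promoters of 29 genes) held this element, against 0.589% of promoters of tested genes and 0.791% of all promoters. Because the list is made of genes that ATF4 and CHOP switch on, this share may describe the list. Its relation to the fall was not tested.

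Levels in other groups were set beside those of day 17. Fos was at 20.1 and 19.1 CPM at day 16, 15.8 and 23.6 CPM at day 16 GW3965 and 5.76 and 6.11 CPM at day 8, so that the day 17 GW3965 libraries lay close to the day 16 levels and the day 17 libraries above them. Trib3 was at 11.9 and 14.9 CPM at day 16 and 15.4 and 22.9 CPM at day 16 GW3965, again near day 17 GW3965 and far below day 17. Egr1 was at 65.6 and 67.00 CPM at day 16, against 486 and 506 CPM in the day 17 libraries. Fos and Trib3 share no 50-base words with other genes. Of 32 immediate early genes with under 1% of shared words, 32 were higher in both day 17 libraries than in all 4 day 16 and day 16 GW3965 libraries, against 30.3% of all tested genes. The shares of all tested genes, here and below, were taken without the limit on shared words. In the day 17 GW3965 libraries 13 of the 32 were above them and 3 below, against 31.8% and 28.1% of all tested genes, so the treated libraries' share above was not far from the background. Of 34 such integrated stress response genes, 27 were above the 4 libraries and 4 below in day 17, against 30.3% and 31.7% of all tested genes. In day 17 GW3965, 5 were above and 12 below, against 31.8% and 28.1%, so the treated libraries' share below was not far from the background. Among stress response genes below day 16 with GW3965, Asns was at 59.96 and 65.3 CPM in day 17 GW3965 and 105 and 108 CPM at day 16. Aars was at 147 and 164 CPM and 286 and 273 CPM.

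Sterol genes stood on the opposite side. Hmgcs1 was at 670.4 and 624 CPM at day 16 and 814 and 786 CPM at day 8, above both day 17 groups. Insig1 was at 108 and 98.5 CPM at day 16, a little below its level with GW3965 and above the day 17 libraries (it has 2.49% of shared words). Of 15 cholesterol synthesis genes with under 1% of shared words, 15 were lower in both day 17 libraries than in all 4 day 16 libraries, against 31.7% of all tested genes, and 11 were lower in both day 17 GW3965 libraries, against 28.1%. Summed over the 33 immediate early genes, levels were 3275 and 3534 CPM in the day 17 libraries, 1497 and 1562 CPM with GW3965 and 1241 and 1282 CPM at day 16. For the 20 cholesterol synthesis genes the sums were 920.3 and 955, 1509 and 1769 and 2191 and 2303 CPM. The day 17 libraries thus differed from the other cultures in stress and stimulus genes as well as in sterol genes, and the part of this in the fold changes was not tested. Day and file treatment cannot be told apart in comparisons across days.

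**Figure D3:**
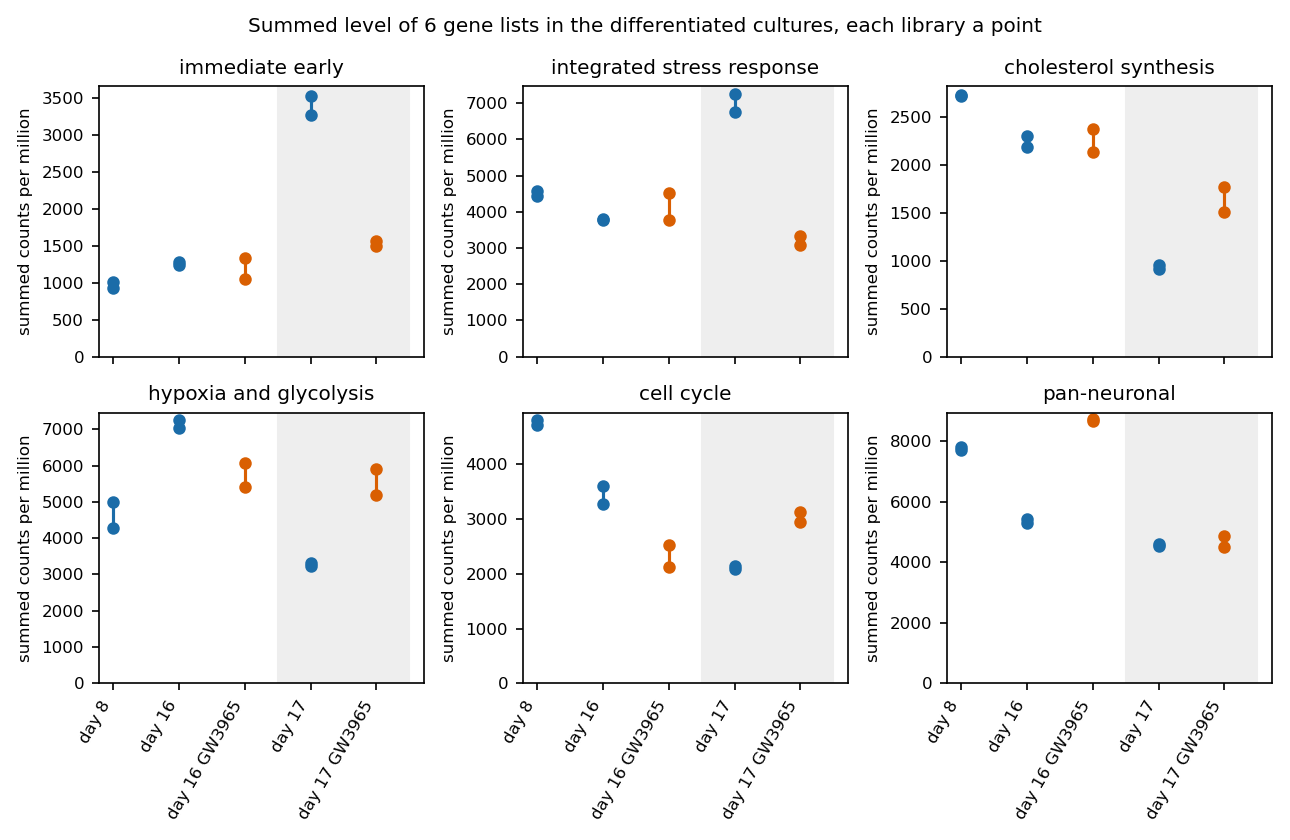
Summed CPM of 6 gene lists in day 8, day 16, day 16 GW3965, day 17 and day 17 GW3965 cultures, each library a point and both day 17 groups shaded. Immediate early sums of 3275 and 3534 and integrated stress response sums of 6750.5 and 7267 in the day 17 libraries lie above all other groups drawn, and the cholesterol synthesis sums of 920.3 and 955 lie below them.

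Hypoxia and glycolysis genes rose in 25 of 32 tested members and 1 fell, with a median of 0.76. Slc16a3 (chr11:120948480-120960868), which exports lactate, was at 25.4 and 23.1 CPM in the day 17 libraries and 122 and 135 CPM with GW3965 (log2 2.40, SE 0.17, adjusted p = 2.38e-09). Ankrd37, a target of hypoxia inducible factor, was low at 1.24 and 1.75 CPM and reached 7.14 and 10.01 CPM. Bnip3, which acts in the removal of mitochondria, went from 37.7 and 39.1 CPM to 130.0 and 149.9 CPM. The groups were apart in each of these 3 genes. Bnip3 shares 21.9% of its 50-base words with other genes and its level is uncertain. The glucose transporter gene Slc2a1 rose from 96.4 and 81.9 CPM to 184 and 227 CPM, Pdk1, which keeps pyruvate out of mitochondria, from 52.8 and 62.6 CPM to 126 and 141 CPM, and Ldha, which makes lactate, from 393 and 409 CPM to 791 and 925 CPM. Vegfa, the angiogenic hypoxia target, did not pass, at 241 and 217 CPM and 197 and 226 CPM, and neither did Adm or Car9. Eno2, the neuronal enolase gene, fell from 52.96 and 50.4 CPM to 36.97 and 45.2 CPM. Eno1 is listed at 0 in all 4 libraries. Of 21 members with under 1% of shared words 15 rose and 1 fell. In both day 17 libraries 16 of the 21 were lower than in all 4 day 16 libraries, against 31.7% of all tested genes. With GW3965 it was 6 of the 21, near the 28.1% of all tested genes.

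The promoters of Slc16a3 (chr11:120948817-120949052, plus strand) and Ankrd37 (chr8:45999868-46000100, minus strand) are given with the hypoxia response core ACGTG in capitals on either strand. The Slc16a3 window lies inside the gene span given above, so it precedes a RefSeq start downstream of the gene's first annotated base.
Slc16a3: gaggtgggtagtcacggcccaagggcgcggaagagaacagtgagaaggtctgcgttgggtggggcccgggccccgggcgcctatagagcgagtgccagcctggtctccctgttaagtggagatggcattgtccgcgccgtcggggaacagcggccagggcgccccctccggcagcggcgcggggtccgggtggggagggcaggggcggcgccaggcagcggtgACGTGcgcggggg
Ankrd37: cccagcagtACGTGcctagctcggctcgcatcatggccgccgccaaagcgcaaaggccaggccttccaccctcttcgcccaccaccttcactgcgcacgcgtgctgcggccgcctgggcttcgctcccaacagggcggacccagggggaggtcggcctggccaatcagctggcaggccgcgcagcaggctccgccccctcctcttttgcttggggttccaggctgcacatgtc
The core was found in 57.6% of promoters of the members that rose (19 of 33 promoters of 23 genes), against 20.3% of promoters of tested genes and 16.6% of all promoters. Because the list holds hypoxia targets, this share may describe the list, and its relation to the rise was not tested.

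Cell cycle genes rose in 26 of 28 tested members and none fell, with a median of 0.82. Mki67 (chr7:135689784-135716361), which is made in dividing cells, went from 174 and 173 CPM in the day 17 libraries to 387 and 403 CPM with GW3965 (log2 1.19, SE 0.11, adjusted p = 7.73e-08). Bub1, a kinase of the mitotic checkpoint, showed the largest difference of the list, from 13.3 and 13.8 CPM to 33.1 and 33.6 CPM. Top2a, which untangles replicated DNA, rose from 149 and 145 CPM to 294 and 296 CPM. Both treated libraries were about level with each other and above both controls for all 3. Birc5 and Bub1b, of cell division and its checkpoint, rose 2.15-fold and 2.14-fold, and Mcm6 and Pcna, of DNA replication, 1.23-fold and 1.25-fold. Ccnd2 and Mcm2 did not pass. At day 16 Mki67 was at 336 and 295 CPM. Of 16 members with under 1% of shared words, 14 were lower in both day 17 libraries than in all 4 day 16 libraries, against 31.7% of all tested genes. In the day 17 GW3965 libraries 1 was so, against 28.1% of all tested genes. The promoter of Bub1 (chr2:127831866-127832109, minus strand) is shown with its CCAAT letters in capitals, for comparison with the sterol genes.
Bub1: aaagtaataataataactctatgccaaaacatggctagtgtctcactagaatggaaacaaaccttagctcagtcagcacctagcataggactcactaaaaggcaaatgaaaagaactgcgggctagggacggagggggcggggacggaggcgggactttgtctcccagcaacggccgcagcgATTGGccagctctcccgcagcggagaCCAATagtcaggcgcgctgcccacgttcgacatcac
CCAAT was found in 86.4% of promoters of cell cycle genes that rose (19 of 22 promoters of 21 genes), against 34.8% of promoters of tested genes and 33.8% of all promoters.

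Neural progenitor genes rose in 11 of 24 tested members and none fell, with a median of 0.40. Hes5 (chr4:154960923-154962371), a Notch target that keeps progenitors dividing, was at 3.93 and 3.67 CPM in the controls and 14.5 and 21.5 CPM with GW3965 (log2 2.24, SE 0.23, adjusted p = 3.64e-07), and Vim, a filament gene of progenitors, glia and mesenchyme, rose from 659 and 625 CPM to 1059 and 1082 CPM. The progenitor factor Sox2 went from 81.2 and 64.02 CPM to 100.5 and 110.4 CPM. Pax6 and Sox1 did not pass, at 18.4 and 15.3 and 17.2 and 24.4 CPM and at 9.86 and 9.04 and 11.2 and 14.2 CPM. Without day 17 GW3965 replicate 2 the number of members that rose was 6, and without day 17 replicate 2 it was 7.

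Oligodendrocyte genes rose in 10 of 17 tested members and none fell, with a median of 0.85, but 1 library held much of this. Mbp, the gene of myelin basic protein, was at 57.1 and 38.7 CPM in the day 17 libraries and at 53.6 and 129 CPM with GW3965. Only the second treated library was above the controls, and the groups overlapped. Gpr17, a receptor of maturing precursors, was at 16.2 and 10.5 and 26.7 and 50.1 CPM. Cnp, a myelin enzyme gene, was at 64.9 and 49.5 and 88.8 and 134 CPM, without overlap. Without day 17 GW3965 replicate 2, or without day 17 replicate 2, the number that rose was 6. The precursor gene Pdgfra and the lineage factor gene Olig2 did not pass.

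Neuronal genes divided. Of 28 pan-neuronal members 11 rose and 8 fell, with a median of 0.09. Tubb3 (chr8:123411424-123422015) rose from 177 and 151 CPM to 287 and 339 CPM (1.903-fold, adjusted p = 8.27e-07) and the neurofilament gene Nefl from 75.5 and 56.9 CPM to 95.9 and 111 CPM. Snhg11, a neuronal noncoding RNA, fell from 685 and 607 CPM to 404 and 468 CPM. Leaving out day 17 GW3965 replicate 2, day 17 replicate 2 or day 17 replicate 1 gave 2, 5 and 7 members that rose. Of 26 genes of synaptic release 1 rose and 4 fell (2 without day 17 GW3965 replicate 2), of 20 glutamatergic genes 1 rose and 4 fell (2 without replicate 2 of either group), and of 23 GABAergic genes 3 rose and 3 fell (0 rose without day 17 GW3965 replicate 2, and 1 without either day 17 replicate). Gad1, which makes GABA, fell from 34.9 and 35.7 CPM to 22.01 and 24.5 CPM, and Grin1, the obligatory NMDA receptor subunit, from 22.96 and 20.8 CPM to 12.8 and 14.5 CPM. Most genes of transmission missed the threshold. Axon guidance and adhesion genes fell in 9 of 28 and rose in 2, led by the semaphorin gene Sema3c at 366 and 409 and 201 and 218 CPM, with 5 lower without day 17 replicate 2.

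Astrocyte genes rose in 4 and fell in 7 of 21. Atp1b2, a sodium pump subunit and adhesion gene, fell from 346 and 304 CPM to 186 and 176 CPM, and the glutamate transporter gene Slc1a2 from 183 and 202 CPM to 127 and 118 CPM. Gfap was at 2178 and 2529 CPM and 1779.9 and 1275 CPM, a fall (adjusted p = 0.00854) that was lost without day 17 replicate 2 (adjusted p = 0.0816) or without day 17 GW3965 replicate 2 (adjusted p = 0.132). S100b, also listed for astrocytes, rose from 1.75 and 0.583 CPM to 6.56 and 6.98 CPM (log2 2.47, and 3.52 without day 17 replicate 1). Without day 17 GW3965 replicate 2 the list had 3 members that fell, and without day 17 replicate 2 it had 4. Mesenchyme genes rose in 7 and fell in 6 of 22. Fn1, the fibronectin gene, fell from 1829.6 and 2187 CPM to 959.6 and 959 CPM, while Col1a1 was at 1471 and 1430.5 CPM and 2134 and 2023 CPM, higher with GW3965. Summed mesenchyme levels were 16962 and 18128 CPM and 16137 and 17127 CPM and overlapped. Muscle genes rose in 4 of 17 and none fell.

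Pluripotency genes rose in 8 and fell in 4 of 22, at levels far below ES cells. Tdgf1 was at 3.24 and 3.03 CPM and 9.82 and 5.76 CPM, with day 17 GW3965 replicate 1 the highest, and without that library 3 members rose. Their part in other results was not tested. Endoderm genes rose in 5 and fell in 1 of 20, endothelial, blood and microglia genes in 1 and 1 of 12 (0 rose without day 17 replicate 2), and interferon genes in 3 and 4 of 20. Endoderm calls were 3 higher without day 17 replicate 2 or without day 17 GW3965 replicate 2, and interferon calls were then 1 lower.

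Other stress and housekeeping lists were mixed. Targets of p53 fell in 14 of 20 and 1 rose, with a median of -0.37. Cdkn1a, the cell cycle inhibitor p21, went from 486 and 482 CPM to 291 and 342 CPM, and Aen, a nuclease gene, from 132 and 141 CPM to 76.8 and 82.4 CPM. Without day 17 GW3965 replicate 1 there were 9 that fell. Chaperone genes of the endoplasmic reticulum rose in 7 and fell in 7 of 20 (4 rose without day 17 replicate 1 or without day 17 GW3965 replicate 1). Sdf2l1, an early chaperone target, rose 2.54-fold while Derl1, a channel for misfolded proteins, fell 1.57-fold. Heat shock genes rose in 3 and fell in 6 of 18, with 3 lower when either GW3965 library was left out. Hspa8, a constitutive chaperone gene with near copies, was at 62.9 and 117 CPM and 62.99 and 64.9 CPM, and day 17 replicate 2 alone was high (log2 -0.48, and 0.02 without it). NRF2 targets rose in 6 and fell in 6 of 17, with Hmox1, which breaks down heme, going from 81.8 and 80.9 CPM to 40.7 and 43.2 CPM.

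Ribosomal protein genes fell in 14 of 26 and none rose, with a median of -0.27, and 24 of the 26 have 1% or more of shared words. Respiratory chain genes fell in 9 and rose in 2 of 26, with 5 lower without day 17 replicate 2. PPAR targets fell in 7 and rose in 2 of 23. Acot2, which hydrolyses acyl-CoA in mitochondria, fell from 75.1 and 71.5 CPM to 16.7 and 14.3 CPM, and Angptl4, a lipase inhibitor, from 44.00 and 43.03 CPM to 29.5 and 20.6 CPM. Acot2 shares 27.7% of its 50-base words with relatives. Without day 17 replicate 2 or without day 17 GW3965 replicate 2, 4 PPAR targets fell. Phospholipid and glyceride synthesis genes rose in 5 and fell in 2 of 22 (3 rose without replicate 2 of either group), led by Pcyt1b of phosphatidylcholine synthesis at 17.9 and 19.6 and 44.1 and 38.6 CPM. Retinoid targets rose in 3 and fell in 2 of 22 (5 rose without day 17 GW3965 replicate 1), among them Dhrs3, a retinaldehyde reductase gene, which fell from 31.03 and 39.6 CPM to 17.6 and 9.75 CPM.

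**Figure D4:**
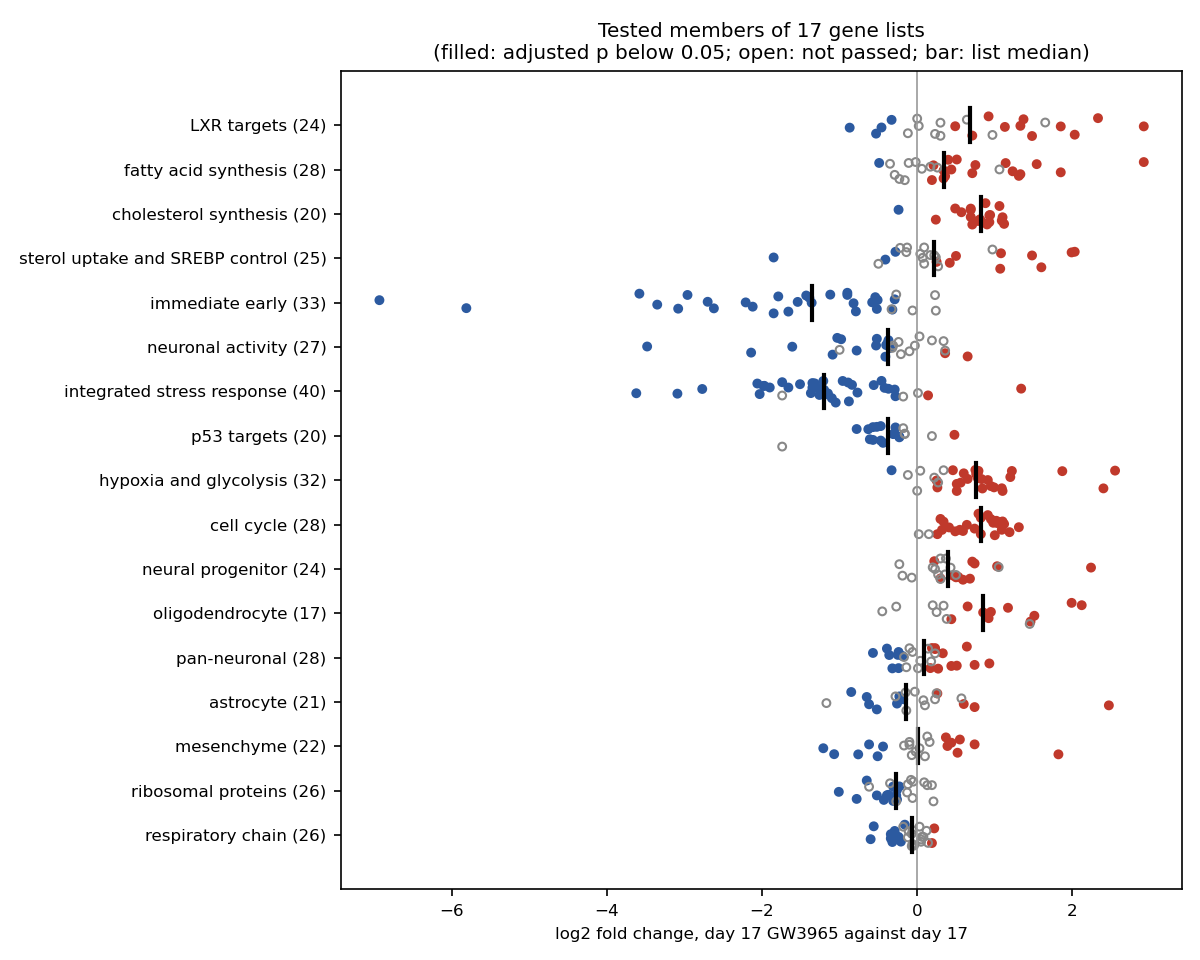
Log2 fold changes of day 17 GW3965 against day 17 for the tested members of 17 gene lists (number tested in brackets), filled where the adjusted p was below 0.05, open where not, with a bar at each list's median (the leftmost point, Egr4, had no count with GW3965, so its fitted place depends on the prior count). Medians lie at 0.82 for cholesterol synthesis and for cell cycle, at -1.36 for immediate early genes and at -1.20 for the integrated stress response, and near 0 for pan-neuronal and mesenchyme genes.

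Beyond these lists, the largest rises at 5 CPM or more included genes of several tissues. Ndufa4l2, a mitochondrial protein gene induced in hypoxia, went from 0.768 and 1.57 CPM to 7.05 and 7.61 CPM. Car3, a muscle and fat carbonic anhydrase, was at 2.05 and 0.816 CPM and 3.44 and 13.96 CPM, high in the second treated library, and its log2 fold change of 2.53 was 1.18 without that library. Without day 17 replicate 1 it was 3.41, and without day 17 GW3965 replicate 1 it was 3.21. Cdh26, a cadherin gene, rose from 0.982 and 0.933 CPM to 6.16 and 4.96 CPM. Lgals7, a galectin gene of epithelia, rose 4.798-fold, and Enpp6, of newly formed oligodendrocytes, 4.36-fold. The log2 fold change of Enpp6 (2.12) was 1.45 without day 17 GW3965 replicate 2 and 2.90 without day 17 replicate 1. Myh8, a fetal muscle myosin, rose 4.83-fold, with 21.4% of its words shared with other myosins or genes.

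Among the largest falls outside the lists, Trim66, a chromatin reader gene, was at 43.1 and 39.9 CPM in the day 17 libraries and 2.098 and 2.86 CPM with GW3965 (log2 -4.06, SE 0.31, adjusted p = 7.68e-09). At day 16 it was at 3.79 and 3.55 CPM. Apobr, a receptor for apolipoprotein B, fell from 49.5 and 38.5 CPM to 3.39 and 5.59 CPM and was at 2.099 and 2.64 CPM at day 16. Steap1, a metalloreductase gene, fell 11.05-fold, and it was at 3.21 and 2.09 CPM at day 16 but at 16.04 and 14.6 CPM in ES control. The cytokine genes Tnfsf15 and Tnfsf18 fell 9.24-fold and 7.93-fold. The log2 fold change of Tnfsf18 (-2.99) was -4.25 without day 17 GW3965 replicate 2 and -2.34 without day 17 GW3965 replicate 1.

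The response at day 17 was then set against that of undifferentiated ES cells given the same ligand, which share no library with it. In ES cells GW3965 changed 55 genes (0.32%), 53 higher (0.309% of those tested) and 2 lower (0.0117%). Of the 55, 41 also changed at day 17, 36 in the same direction and 5 in the opposite one. The 36 are 65.5% of the ES calls and 0.596% of the day 17 calls. The difference between the responses passed the test in 3131 genes (18.2%), with 1475 (8.59%) higher and 1656 (9.65%) lower at day 17.

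Abca1 showed the largest such contrast of the lipid genes. In ES cells it rose from 8.79 and 7.51 CPM to 345 and 327 CPM (log2 5.37), and at day 17 it started from 155 and 153 CPM. The day 17 response was lower by a log2 difference of -4.24 (SE 0.13, adjusted p = 2.02e-14). Abcg1, Mylip and Fasn had smaller responses at day 17 as well, with differences of -0.75, -0.88 and -0.91. For Srebf1 and Scd2 the differences of -0.43 (SE 0.16) and -0.08 (SE 0.08) did not pass. Scd1 and Insig1 responded more at day 17, each by 1.07 (adjusted p = 7.66e-05 and 1.61e-06).

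Several gene groups that moved at day 17 had few calls or none in ES cells. Only 0.32% of all tested genes passed there, so a list without a call is near that share. Across all tested genes the response was higher at day 17 in 8.59% and lower in 9.65%. Cholesterol synthesis had 1 member higher in ES cells, with a median of 0.03, and 18 of 20 members had a higher response at day 17 than in ES cells. No immediate early or integrated stress response gene passed in edgeR's test in ES cells (4 and 2 at an unadjusted p below 0.05; no other tool was run on that comparison), and 25 of 33 and 35 of 40 had a lower response at day 17. Fos was at 8.88 and 8.14 CPM in ES control and 9.25 and 7.89 CPM with GW3965. Hypoxia and glycolysis genes had 23 of 32 and cell cycle genes 26 of 28 members with a higher response at day 17. By contrast the LXR target list had 3 higher and 9 lower, and fatty acid synthesis 6 higher and 7 lower.

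**Figure D5:**
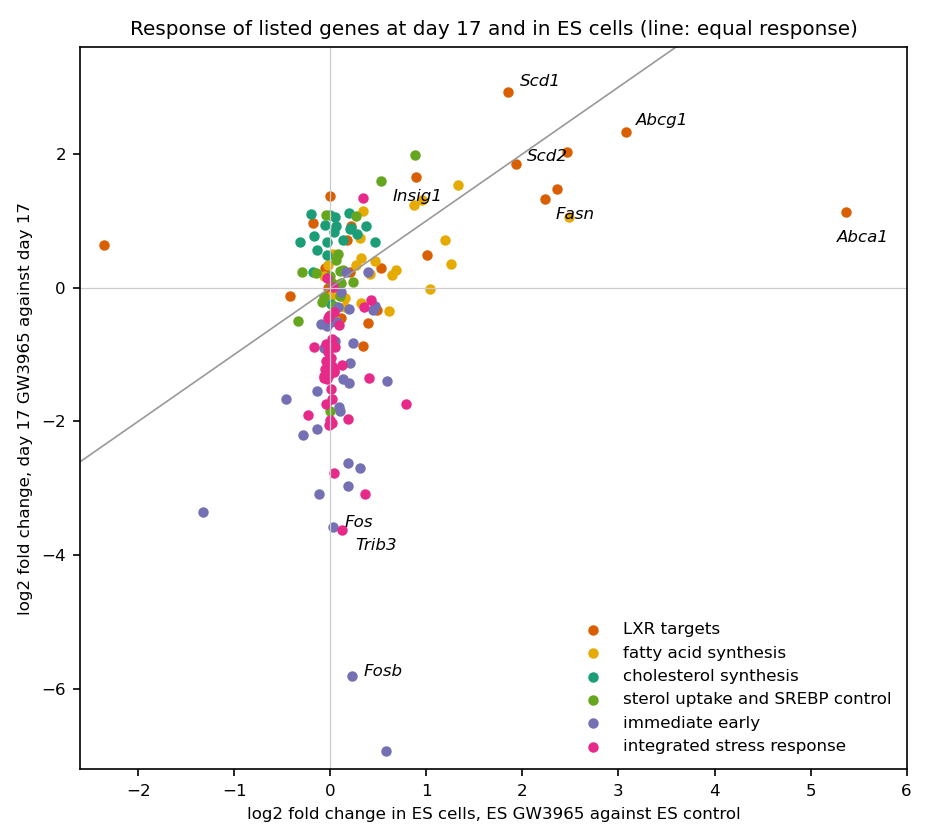
Log2 fold changes with GW3965 in ES cells (x axis) and at day 17 (y axis) for members of 6 gene lists, 1 point a gene, with a line where both responses are equal. Abca1 lies far below the line at 5.37 and 1.13, Scd1 and Insig1 lie above it, and immediate early and stress genes such as Fosb, Fos and Trib3 lie near 0 on the x axis and between -5.81 and -3.58 on the y axis.

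Cultures at day 16 with GW3965 gave another contrast, over a treatment that the deposited names read as longer. There 5446 genes differed (31.7%), 2235 higher (13.0%) and 3211 lower (18.7%), and the response difference between days passed in 6356 genes (37.0%), 3439 higher (20.0%) and 2917 lower (17.0%) at day 17. By a chi-square per gene on counts, the 2 day 16 GW3965 libraries stood apart from each other. It was 40.4, against 4.68 between the day 16 libraries, 5.53 between the day 17 libraries and 6.89 between the day 17 GW3965 libraries. Their correlation of log2 CPM, 0.9952, was close to the 0.9956 between the day 17 GW3965 libraries. Between the day 16 and between the day 17 libraries it was 0.9969 and 0.9961. Abca1 rose more at day 16 (log2 1.95) than at day 17, and Abcg1 did too (3.13), with differences of -0.82 and -0.80 (adjusted p = 7.14e-06 and 0.00273). Insig1 did not pass at day 16 (log2 -0.09, adjusted p = 0.418), and its response was higher at day 17 by 1.68. Mylip had a difference of 0.25 that did not pass (adjusted p = 0.202).

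Gene lists differed between the days in both directions. Across all tested genes 13.0% rose and 18.7% fell at day 16, and the response at day 17 was higher in 20.0% and lower in 17.0%. Cell cycle genes fell in 26 of 28 members at day 16, with a median of -0.65, where they had risen at day 17, and 27 had a higher response at day 17. Pan-neuronal genes rose in 25 of 28 members at day 16, with a median of 0.73, and 23 had a lower response at day 17. Cholesterol synthesis genes rose in 1 and fell in 3 of 20 at day 16, and 18 had a higher response at day 17. Immediate early genes had 3 higher and 6 lower members at day 16, and 21 of 33 had a lower response at day 17. Trh, a neuropeptide precursor, had a day 16 response of -2.99 and a day 17 response of 1.44, a difference of 4.43 (adjusted p = 5.79e-10).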

How the data were processed

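The authors deposited 1 table of raw read counts per gene symbol for each library, with totals of unassigned reads below the genes; those totals were left out of library sizes and tests. The submitters' processing notes name mm10, TopHat2 2.0.7, Cufflinks 2.0.2, HTSeq 0.6.0 and Cuffdiff 2.0.2; their order, the annotation and the use of strand are not given in the sources used here, so reads of overlapping genes on opposite strands cannot be told apart. Counts of all 18 libraries (9 groups of 2) were fitted in edgeR 4.0.16 (R 4.3.3) with filterByExpr, TMM scaling and quasi-likelihood tests, which kept 17166 of 23420 symbols, and p-values were adjusted over all of them by the Benjamini-Hochberg method. Both response differences were contrasts of the same fit. Alternatives used limma 3.58.1 and DESeq2 1.42.0, other filters and size factors, a replicate block, the groups compared alone and each library left out. The crossed block, offsets for GC content and length, and the limit on shared 50-base words were added after the data were seen. The fit was tested on simulated data with 50 genes changed at each fold size, fewer changes than were called in these data. For day 17 GW3965 against day 17 it recovered 34% of genes changed 1.25-fold, 90% at 1.5-fold and 96% at 2-fold. Of its 175 calls 15 were false. Positions come from GENCODE M21 (GRCm38), matched for 98.4% of symbols, and promoters from RefSeq.

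The members and gene lists were chosen with earlier results of these data known. Genes named are a chosen set of receptor, lipid, immediate early and stress genes, the 12 largest rises and 12 largest falls at 5 CPM or more without overlap, up to 6 called members per list, the 6 largest response differences in each direction, and further list members named where a list's account needed them, which were chosen after their values were seen. Some genes that the rule names are not reported here. Replicate numbers were not used to pair libraries.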

Additional observations from a re-analysis of the deposited data

Results flagged for a closer look

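For 11 receptor, lipid, immediate early and stress genes named by choice, the day 17 response to GW3965 differed from that in ES cells, at day 16 or in both, by a test of the difference itself (edgeR, adjusted p below 0.05). Values are the day 17 log2 fold change minus the other one. Fos differed by -3.61 from ES cells and -3.58 from day 16, and Trib3 by -3.74 and -4.12. Both fell at day 17 from control levels above those of all other groups. Scd1 differed by 1.07 and 1.78 and Insig1 by 1.07 and 1.68, so the fold changes of the desaturase and the sterol sensor gene were larger at day 17. Insig1 rose there from control levels of 38.03 and 40.99 CPM, which were below its levels at day 16. Abca1 differed by -4.24 and -0.82 and Abcg1 by -0.75 and -0.80, the exporters responding less at day 17. Fasn differed by -0.91 from ES cells but 0.96 from day 16. Mylip differed by -0.88 from ES cells, while Srebf1, Scd2 and Nr1h2 differed from day 16 by 0.66, 0.82 and 0.55. Day 16 and day 17 tables differ in their treatment of reads aligned more than once, which each response shares between its own groups.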

How the results depend on the processing

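Each of the 3 comparisons kept its number of calls within 1.5 times under every alternative run. Calls at day 17 numbered 5418 to 6614 against 6044, and 4335 to 4618 with 1 library left out. For the difference from ES cells they numbered 2844 to 3776 against 3131 (2224 to 2490 with 1 library left out), and for that from day 16 5984 to 7069 against 6356 (5246 to 6237). The share of higher calls in the difference from day 16 was 54.1%, and 45.3% with offsets for GC content and length. With the replicate block the calls were 5734, 2844 and 6071. Deviations of same-numbered replicates had a correlation of -0.135 at day 17, 0.0123 in ES cells and -0.0166 at day 16. No positive shared effect of the numbers was thus seen at day 17. With 2 libraries a group this cannot settle whether libraries were paired. A crossed block, added after the data were seen, gave 5922 calls at day 17. Of 2813 pairs of a named gene and an alternative, 191 lost the call, 9 gained one and 1 reversed: Hspa8 had a log2 fold change of 0.02 without day 17 replicate 2 and -0.88 without day 17 replicate 1. With 2 libraries a group, which may be technical replicates, leaving 1 out assumes that the lone library varies like the other groups.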
